A study of Mus musculus with 23 samples.

Results

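A pair of knockout lines of the same mouse pancreatic stellate cell line, both carrying a disrupted Egfr gene, were compared with each other here. The lines are called clone A3 and clone B4 after their labels. The labels do not say how Egfr was disrupted or whether each line grew from a single cell. The comparison used 6 of the 23 RNA-seq libraries of the study, chosen by label alone as the stellate cell fraction of PSC4 KO A3 (3 libraries) and PSC4 KO B4 (3 libraries). Stellate cells (PSCs) had been embedded in Matrigel together with mouse pancreatic tumour organoids, kept for 3.5 days with reduced/control media, and then separated from them by flow sorting. Each clone was cultured once with each of 3 organoid lines, T6-LOH, T12-LOH and T69A, so that the clones were compared within organoid lines. The Egfr wild-type counterpart, PSC4 Rosa, has 3 libraries with the same organoid lines and serves below as the reference of the parent line. A second cell line, PSC5, has 1 library each of Rosa, KO C5 and KO D4 with T6-LOH organoids. Nothing in the labels says that the 3 cultures of a clone came from separate thaws or days, so p-values measure the spread between these libraries, which may be partly technical. All 12 stellate cell libraries share the co-culture, so nothing here describes cells grown alone.

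Stellate cells are the fibroblast-like cells that surround the acini and ducts of the pancreas. At rest they store retinoids, and when activated they make collagen, contract and signal to neighbouring epithelium, in tumours as cancer-associated fibroblasts. Mesenchymal cells keep a positional memory of the body region they came from in the form of stable expression of homeobox, T-box, forkhead and Sox transcription factors. The mesenchyme around the embryonic pancreas and gut belongs to the splanchnic mesoderm, where factors such as Isl1, Foxf1 and Gata4 act.

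The 6 libraries held between 21823084 and 31476160 estimated counts. Levels below are CPM, counts scaled to library size, and values of 3 libraries are given in the order T6-LOH, T12-LOH, T69A. Pdgfrb and Pdgfra, receptors that mark mesenchymal cells, were at 321 to 394 CPM and 476 to 972 CPM across both clones, whereas the stellate markers Lrat and Reln had at most 1 count in the 6 libraries together and Gfap at most 0.327 CPM in any library. Epithelial carry-over, taken as the median level of organoid marker genes relative to the organoid libraries of the same organoid line, was 0.150%, 0.183% and 0.594% in A3 and 0.177%, 0.301% and 0.776% in B4. It was thus higher in B4 with each organoid line, and highest with T69A organoids in both clones. The sum of the 26 listed epithelial markers went the other way, with 350, 784 and 1010 CPM in A3 and 205, 722 and 588 CPM in B4. The immune marker list summed to 7.30 to 8.73 CPM in A3 and 7.84 to 10.3 CPM in B4, with Ptprc, the leukocyte common antigen, at 0 counts in all 6 libraries. The acinar and endocrine list summed to 10.7 to 14.4 CPM in A3 and 14.3 to 18.6 CPM in B4, with the trypsinogen gene Prss1 at 0. Mitochondrial transcripts took 2.26% to 2.46% of the counts in A3 and 2.75% to 2.83% in B4.

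Egfr, the targeted gene, encodes the receptor for EGF-family ligands. Its transcripts remained in both clones. They stood at 58.9, 105 and 101 CPM in A3, at 118, 221 and 202 CPM in B4 and at 285, 294 and 327 CPM in Rosa. B4 exceeded A3 with every organoid line, and both clones were below every Rosa library. The difference between the clones was 1.02 ± 0.06 on the log2 scale (SE, n = 3 pairs, edgeR quasi-likelihood test, adjusted p = 0.000519). Without the pairing by organoid line the same value had an adjusted p of 0.0513. Against Rosa, Egfr was lower by a log2 value of -1.83 in A3 (adjusted p = 0.0042) and of -0.81 in B4 (adjusted p = 0.0069), both from the same 3 Rosa libraries. The clones therefore share the label KO but not the amount of Egfr transcript left. Whether the remaining transcripts encode a protein was not measured.

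Across the genome the clones differed in many genes. Of 13595 genes tested, 6143 (45.2%) passed an adjusted p of 0.05 with 2 residual degrees of freedom, 3102 (22.8%) higher and 3041 (22.4%) lower in B4. The change was at least 2-fold for 1448 genes (10.7%), of which 798 (5.87%) were higher and 650 (4.78%) lower in B4. The median absolute log2 difference over all tested genes was 0.335, and 4695 of the calls were under 2-fold. Of the 6143 called genes, 6139 pointed the same way with all 3 organoid lines. In 1243 of the 1448 genes called at 2-fold the libraries of the clones did not overlap. Both counts follow largely from the selection, since the calls were made from the same 6 libraries and pairs. They are no separate measure of reproducibility, and the shares over all tested genes are not given here. Leaving out the T69A library of B4 gave 3747 genes (1835 higher and 1912 lower) and leaving out the T69A library of A3 gave 3748 (1829 higher and 1919 lower), the lowest counts of the 6 omissions. Omitting a library leaves 1 residual degree of freedom. A call named below without a remark held in all 6 such omissions, and where one was lost the largest adjusted p is given with the library left out.

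The wild-type libraries lay nearer to A3. In a principal component analysis of the 9 PSC4 stellate cell libraries, the first component (53.7% of the variance) placed B4 at 41.4 to 54.4, A3 at -31.0 to -14.5 and Rosa at -35.1 to -21.2. Rosa and A3 overlapped on this axis and B4 stood apart. In tests that share the 3 Rosa libraries, 988 genes (7.27%) differed between A3 and Rosa and 6920 (50.9%) between B4 and Rosa. The mean level in Rosa was nearer to A3 for 625 of the 798 genes called at 2-fold as higher in B4 and for 583 of the 650 called as lower. Over all tested genes it was nearer to A3 in 73.8%.

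Some genes were present in 1 clone and nearly absent from the other. They were counted by a rule of at least 2 CPM in all 3 libraries of one clone and under 0.1 CPM in all 3 of the other. There were 17 such genes, 12 present in A3 and 5 present in B4. The 12 present in A3 were Isl1, Crabp1, Cadm2, Mboat2, Fsd1, Wasf3, Clec14a, Slc8a1, Nkain2, Fign, AW551984 and 9330182L06Rik, and the 5 present in B4 were Lhx2, Fli1, Dok5, Gstm4 and Zfp105. Several of these genes are in no list and were picked once their values were known. A rule of 5 CPM left 4 genes.

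Isl1, a LIM-homeodomain factor of splanchnic mesoderm and pancreatic mesenchyme, was at 8.57, 9.92 and 8.03 CPM in A3 and had no count in any B4 library. Rosa had 18.9, 19.4 and 14.2 CPM. Isl1 was at least 224-fold lower in B4, taking 3 counts over the 3 B4 libraries as the floor (adjusted p = 0.00081). Lhx2, another LIM-homeodomain factor, known from limb bud, liver and hair follicle, showed the opposite pattern with 0, 0.0963 and 0.0933 CPM in A3, 3.0, 2.47 and 3.05 CPM in B4 and 0.257 to 0.464 CPM in Rosa. Crabp1, which binds retinoic acid in the cytoplasm, had 476 counts in the 3 A3 libraries and 1 count in B4. Its CPM in A3 were 6.98, 7.00 and 4.85, and in Rosa 12.5, 20.0 and 7.51. The A3 to B4 ratio of Crabp1 was 476 with a 95% exact counting interval of 85.1 to 18860. Fli1, an ETS factor of endothelial and blood cells, rose to 3.90, 4.18 and 4.05 CPM in B4 from 3 counts in A3 (ratio 101, interval 34.1 to 490). These counting intervals and floors cover counting error only.

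The promoter windows of 3 of these genes, and of Rgs5, the gene of mural cells described below, are printed to show the sequence at the start of genes that were near 0 in one clone and, for Rgs5, of a gene low but present in A3 and far higher in B4. They run from 250 bases before to 50 bases after the RefSeq transcription start in GRCm38.p6, a build that is not the one used for counting. Each CG dinucleotide, the same on both strands, is in capitals. Isl1 is at chr13:116309639-116309938 on the minus strand, Lhx2 at chr2:38339031-38339330 on the plus strand, Crabp1 at chr9:54764498-54764797 on the plus strand and Rgs5 at chr1:169655251-169655550 on the plus strand.
Isl1: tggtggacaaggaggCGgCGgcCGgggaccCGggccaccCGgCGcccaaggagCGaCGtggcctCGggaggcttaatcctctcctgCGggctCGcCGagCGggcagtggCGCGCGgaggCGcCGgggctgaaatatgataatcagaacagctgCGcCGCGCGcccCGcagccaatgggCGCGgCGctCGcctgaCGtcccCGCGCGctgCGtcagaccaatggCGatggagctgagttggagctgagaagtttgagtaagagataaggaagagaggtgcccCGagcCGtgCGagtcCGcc
Lhx2: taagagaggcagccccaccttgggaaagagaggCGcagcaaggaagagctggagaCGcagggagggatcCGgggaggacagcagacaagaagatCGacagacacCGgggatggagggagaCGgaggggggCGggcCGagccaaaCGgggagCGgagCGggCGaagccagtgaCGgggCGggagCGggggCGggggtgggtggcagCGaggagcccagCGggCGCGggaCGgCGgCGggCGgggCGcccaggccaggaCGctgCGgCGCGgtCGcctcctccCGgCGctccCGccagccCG
Crabp1: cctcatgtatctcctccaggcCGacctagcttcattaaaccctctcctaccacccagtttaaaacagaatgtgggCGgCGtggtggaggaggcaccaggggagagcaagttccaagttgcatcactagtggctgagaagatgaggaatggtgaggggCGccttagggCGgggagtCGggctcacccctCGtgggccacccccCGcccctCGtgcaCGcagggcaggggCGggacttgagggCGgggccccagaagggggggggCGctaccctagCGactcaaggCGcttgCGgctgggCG
Rgs5: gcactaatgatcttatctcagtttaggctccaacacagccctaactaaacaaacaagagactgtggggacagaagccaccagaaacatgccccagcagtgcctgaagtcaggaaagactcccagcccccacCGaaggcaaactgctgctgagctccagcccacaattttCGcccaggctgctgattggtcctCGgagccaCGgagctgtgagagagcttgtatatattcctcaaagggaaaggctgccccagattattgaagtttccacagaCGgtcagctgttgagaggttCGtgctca
The windows hold 37 CG in Isl1, 34 in Lhx2, 17 in Crabp1 and 6 in Rgs5. At least 20 CG occur in 26.5% of the 32851 promoter windows of the RefSeq table, and in 59.6% of the tested genes that have a window (the richest window of each gene). Lhx2 has another window in the table, with 29 CG. A comparison over gene sets is void, because only 9928 of the 13582 different symbols of the tested genes matched the table. DNA methylation was not measured.

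**Figure D1:**
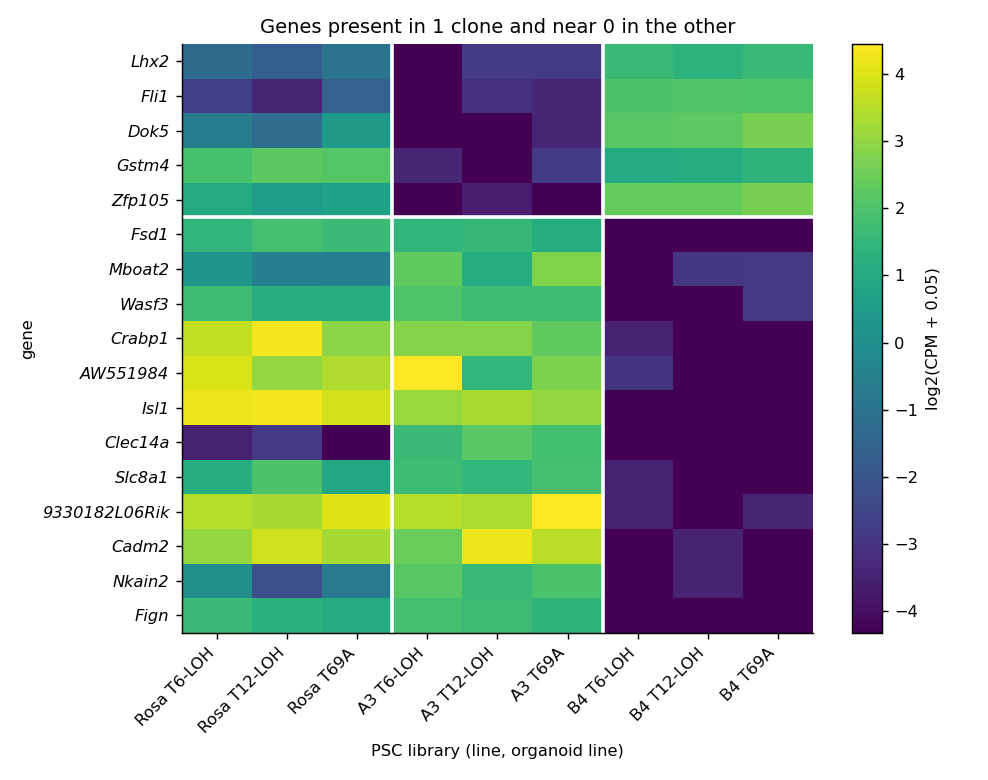
Levels of the 17 genes present in 1 clone and near 0 in the other, one row per gene and one column per stellate cell library (3 PSC4 Rosa, 3 A3, 3 B4), coloured by log2(CPM + 0.05). The upper block of 5 genes is dark in the A3 columns and the lower block of 12 is dark in the B4 columns, while Rosa matches A3 for most of the lower block but is lower for Clec14a, Nkain2 and Mboat2.

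The developmental regulators differed in both directions. Of 227 listed factors, 140 passed the filter on low counts, 72 (51.4%) passed the test, 47 higher and 25 lower in B4, and 34 (24.3%) did so at 2-fold. The corresponding shares over all tested genes are the 45.2% and 10.7% given above. A factor present in 1 clone only passes the filter through that clone, and all lists were chosen with earlier results of these data known. Counts and shares of list members, here and below, are therefore a description. Placing Isl1 and En2, the members with no count in one clone, at their bounds left the median log2 difference of the lists at 0.08.

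Hox genes record position along the body axis. Of 39 listed, 30 were tested, 8 were higher and 4 lower in B4, and the median log2 difference was 0.16. The share called was 40%, below the 45.2% of all tested genes, and 16.7% were called at 2-fold against 10.7%. Taking the chromosome medians out gave 6 higher and 5 lower. Hoxb9, a gene of the trunk, stood at 133, 99.9 and 128 CPM in A3 and 127, 112 and 110 CPM in B4. The groups overlapped, with a log2 difference of -0.04 (adjusted p = 0.75). Hoxb13, a marker of the posterior end of the axis, was at 0.272, 0.353 and 0.373 CPM in A3 and 10.9, 7.96 and 11.2 CPM in B4, with 1.04 to 2.14 CPM in Rosa. Every B4 library was above every A3 and Rosa library, and the difference from A3 was 4.85 ± 0.24 (SE, adjusted p = 0.00029). Hoxc10, of the lumbar and hindlimb region, moved the other way, from 12.9, 11.3 and 10.8 CPM in A3 to 1.09, 0.955 and 1.88 CPM in B4 (log2 difference -3.19, adjusted p = 0.00074). Within the same Hoxc cluster, Hoxc9 was higher in B4 by 1.03 (adjusted p = 0.0054) and Hoxc8 lower by -1.18 (adjusted p = 0.017, and 0.0983 without the T6-LOH library of A3). Neighbours in 1 cluster thus differed in direction. Hoxd8 (1.57), Hoxa11 (0.78) and Hoxb3 (0.71) were also higher in B4.

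Regulators of splanchnic and gut mesenchyme split. Of 33 listed, 20 were tested, 7 were higher and 3 lower in B4, with a median of 0.03. Called members made up 50% of those tested, and 20% at 2-fold, against 45.2% and 10.7% of all tested genes. Besides Isl1 and Lhx2, Gata4, a zinc-finger factor of gut and heart mesoderm, rose from 18.7, 15.7 and 19.0 CPM in A3 to 47.5, 29.6 and 49.0 CPM in B4 (log2 difference 1.21, adjusted p = 0.00092), with Rosa at 18.3 to 21.5 CPM. Foxf1, the forkhead factor that marks splanchnic mesenchyme, was at 20.6, 13.8 and 19.4 CPM in A3, at 46.8, 34.8 and 47.9 CPM in B4 and at 4.67 to 12.5 CPM in Rosa. Foxf1 was higher in both clones than in Rosa, more so in B4, and B4 exceeded A3 by 1.27 ± 0.08 (SE, adjusted p = 0.00052). The orphan nuclear receptors Nr2f2 and Nr2f1 (COUP-TFs) were lower in B4 by -0.83 and -0.81 (adjusted p = 0.0018 and 0.0022), and Meis2, a homeobox cofactor, was higher by 0.89 (adjusted p = 0.0023). Gata6 had 24.6, 30.1 and 25.7 CPM in A3 and 43.7, 31.1 and 42.7 CPM in B4 (adjusted p = 0.047, and 0.23 without the T69A library of A3).

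Limb, skeletal and craniofacial homeobox genes gave 8 members higher and 5 lower among 26 tested of 42 listed. Of those tested, 50% were called and 26.9% at 2-fold, against 45.2% and 10.7% of all tested genes. En2, an engrailed factor of the midbrain-hindbrain boundary, had no count in A3 but 1.61, 2.15 and 3.36 CPM in B4 and 2.04, 1.5 and 2.93 CPM in Rosa. En2 was at least 57.9-fold higher in B4 (floor of 3 counts over the A3 libraries, adjusted p = 0.0024), and here it was A3 that differed from Rosa. Its relative En1 rose from 15.0, 37.6 and 25.7 CPM to 42.5, 70.4 and 59.0 CPM (log2 difference 1.19, adjusted p = 0.0013). Lhx6 was higher by 1.20 (adjusted p = 0.0006) and Six4 by 0.85, whereas Six2 was lower by -1.04 (adjusted p = 0.0013) and Shox2 by -0.77 (adjusted p = 0.00098). Six4 is on a chromosome whose median was itself shifted up, and it stayed called with the chromosome medians taken out, at 0.60.

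Sox factors govern progenitor and lineage states. Of 20 listed, 8 were tested and 6 (75%) called, 5 higher and 1 lower in B4, each at 2-fold, and the median was 1.37. Over all tested genes 45.2% were called, and 10.7% at 2-fold. A member low in A3 and high in B4, such as Sox11, passes the filter on low counts through B4. These counts and the median are therefore a description. Taking the chromosome medians out gave 4 higher and 0 lower. Sox4, a factor of mesenchymal progenitors, was at 175, 129 and 140 CPM in A3, 407, 417 and 413 CPM in B4 and 141 to 199 CPM in Rosa. The B4 libraries were nearly equal to each other and all above the other 6 libraries (log2 difference 1.49 ± 0.11, SE, adjusted p = 0.00063). Sox11, close kin of Sox4, was at 0.680, 0.225 and 0.560 CPM in A3 and 6.6, 9.55 and 10.5 CPM in B4 (4.23, adjusted p = 0.0011). Sox13 rose by 3.27, Sox8 by 1.82 and Sox9, the factor of cartilage and duct progenitors, by 1.24 (adjusted p = 0.028, and 0.11 without the T6-LOH library of B4). Sox7 was the member that fell (-1.26, adjusted p = 0.046), and its call was lost in each of the 6 omissions, up to an adjusted p of 0.222 without the T69A library of A3. T-box factors gave 3 higher and 0 lower among 8 tested, namely Tbx2 (1.40), Tbx18 (0.66) and Tbx3 (1.10, adjusted p = 0.0569 without the T6-LOH library of B4). Their share called, 37.5%, was below the 45.2% of all tested genes, and 25% were called at 2-fold against 10.7%.

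Forkhead factors outside the splanchnic list gave 15 calls of 16 tested (93.75%, against 45.2% of all tested genes), 9 higher and 6 lower. That count did not hold when single libraries were left out, with 7 to 10 calls, lowest without the T12-LOH library of either clone, and it was 11 with the chromosome medians taken out. Foxs1, of mural cells and sympathetic neurons, rose from 5.39, 2.57 and 3.69 CPM to 18.4, 8.71 and 15.3 CPM (1.86, adjusted p = 0.00061). Foxd1, a factor of kidney stroma, rose by 0.77, while Foxq1 fell by 1.96 and Foxm1, a factor of dividing cells, fell by 0.88. Foxl1, of gut mesenchyme, was lower by -1.12, and with the chromosome medians taken out its adjusted p was 0.0681. Among 30 tested bHLH and zinc-finger regulators, 6 were higher and 6 lower. Calls made up 40% of those tested, and 16.7% at 2-fold, against 45.2% and 10.7% of all tested genes. Runx3 was at 26.8, 28.5 and 26.7 CPM in A3, 14.1, 12.3 and 15.1 CPM in B4 and 10.8 to 11.3 CPM in Rosa, so that A3 was the clone far from Rosa for this factor (log2 difference -0.98, adjusted p = 0.0013). Prdm6, a regulator of smooth muscle cells, fell by 1.65 and Zeb1, a repressor of epithelial genes, rose by 0.66.

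**Figure D2:**
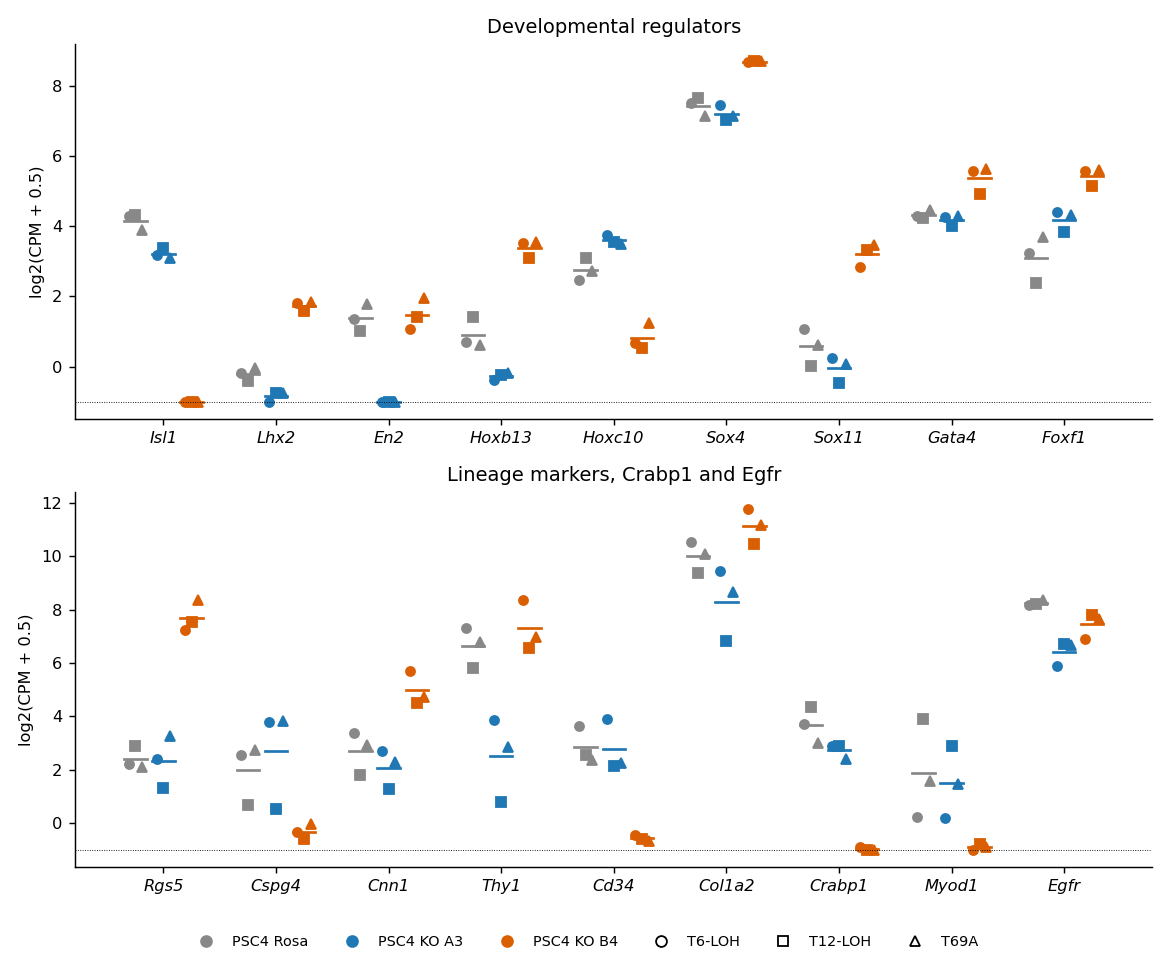
Level of 18 genes in each PSC4 stellate cell library on the log2(CPM + 0.5) axis, with colour for the line (Rosa, A3, B4), marker shape for the organoid line and a bar at the mean of 3 libraries, the dotted line marking 0 CPM. Isl1 and Crabp1 lie on or next to the dotted line in B4 and En2 in A3, while Rgs5, Hoxb13 and Sox4 are higher in B4 than in all A3 and Rosa libraries.

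Lineage markers differed in both directions. Over the lineage lists 152 of 280 genes were tested, 75 (49.3%) were called, 40 higher and 35 lower in B4, and 42 (27.6%) at 2-fold. The share called is near the 45.2% of all tested genes, of which 10.7% were called at 2-fold. In bulk RNA, a lower share of cells that express a gene and less RNA per cell cannot be told apart.

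Markers of pericytes, the contractile cells that wrap capillaries, did not move together. Rgs5, a regulator of G-protein signalling and a standard pericyte marker, stood at 4.76, 1.96 and 9.01 CPM in A3, 149, 184 and 328 CPM in B4 and 3.80 to 6.95 CPM in Rosa. All B4 libraries lay far above the other 6, with a difference of 5.5 ± 0.36 (SE, adjusted p = 0.0016). Other pericyte markers fell. Cspg4, the NG2 proteoglycan, went from 13.4, 0.931 and 13.9 CPM to 0.300, 0.159 and 0.480 CPM (log2 difference -4.74, adjusted p = 0.0013). Ndufa4l2 fell by 5.27 (adjusted p = 0.00018), Angpt1, the ligand of the endothelial receptor Tie2, by 3.46, and Steap4 by 2.87 (adjusted p = 0.01, and 0.0695 without the T69A library of B4). In all, 3 members were higher and 6 lower of 12 tested among 16 listed, with a median of -1.25. Called members were 75% of those tested, and 50% at 2-fold, against 45.2% and 10.7% of all tested genes. The 9 calls became 3 without the pairing by organoid line. Pdgfrb did not pass the test, at 0.14 (adjusted p = 0.18). The stellate marker list, which shares Rgs5, had 6 higher and 5 lower of 17 tested, with 64.7% called and 41.2% at 2-fold. Des (desmin) rose by 1.71 and Cygb (cytoglobin) by 1.44, and Fabp4 and Ecm1 fell by 2.54 and 0.81.

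Called contractile genes of smooth muscle were mostly higher in B4, 10 against 2 lower among 21 tested of 28 listed. The median log2 difference of the 21 was 0.43. Calls made up 57.1% of those tested, and 23.8% at 2-fold, against 45.2% and 10.7% of all tested genes. The 12 calls became 6 without the T6-LOH library of A3 and 3 without the pairing by organoid line. Cnn1 (calponin) was at 5.98, 1.93 and 4.34 CPM in A3 and 51.5, 22.0 and 26.0 CPM in B4, without overlap (3.05 ± 0.19, SE, adjusted p = 0.00057). Acta2, smooth muscle actin and the usual marker of activated stellate cells, was at 421, 102 and 200 CPM in A3 and 625, 237 and 278 CPM in B4. B4 was higher with each organoid line, yet the groups overlapped because both clones were lowest with T12-LOH (0.75, adjusted p = 0.016, and 0.0558 without the T6-LOH library of A3). Myocd, the coactivator that drives this gene programme in smooth muscle, was lower in B4 by -2.82 (adjusted p = 0.0053), with 7.89, 0.353 and 7.51 CPM in A3 and 1.35, 0.159 and 0.523 CPM in B4. Hspb6 also fell (-0.95).

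Calls over all tested genes were 45.2%, and 10.7% at 2-fold, against 55.6% of skeletal and cardiac muscle genes, all at 2-fold. Of 9 tested genes of this list among 36 listed, 3 were higher and 2 lower in B4. Without the T6-LOH library of A3, 3 calls were left. The lower ones, Myod1 and Cdh15, were found in A3 and Rosa and were nearly absent from B4. The higher ones were the sarcomere genes Ldb3 (1.47), Tnni1 (1.34) and Myl4 (1.25), whose adjusted p rose to 0.0992 without the T12-LOH library of B4, 0.118 without the T6-LOH library of A3 and 0.174 without the T69A library of B4. Myod1, the master regulator of the skeletal muscle lineage, was at 0.635, 6.97 and 2.29 CPM in A3, at 0.658, 14.5 and 2.46 CPM in Rosa and at 0, 0.0796 and 0.0436 CPM in B4. The level followed the organoid line in both A3 and Rosa, highest with T12-LOH, and the A3 to B4 ratio was 93.4 with a counting interval of 31.6 to 456 (3 counts in B4, adjusted p = 0.00068). Cdh15 (M-cadherin) was at 4.35, 2.79 and 2.85 CPM in A3 and 0.525, 0.199 and 0.0436 CPM in B4 (-3.79, adjusted p = 0.0022). Myog, which follows Myod1 in muscle differentiation, did not pass the filter on low counts.

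Fibroblast markers gave 5 higher and 6 lower of 28 tested. The share called, 39.3%, was below the 45.2% of all tested genes, and 35.7% were called at 2-fold against 10.7%. Thy1 (CD90), a surface glycoprotein used to sort fibroblasts, was at 14.2, 1.25 and 6.72 CPM in A3, 327, 93.6 and 125 CPM in B4 and 159, 55.2 and 111 CPM in Rosa. A3 was the clone that departed, and the difference between clones was 4.81 ± 0.41 (SE, adjusted p = 0.0028). Cd34, carried by resident fibroblasts and vascular cells, was at 14.4, 3.92 and 4.25 CPM in A3 and at 0.225, 0.159 and 0.131 CPM in B4, with Rosa at 4.70 to 12.0 CPM (-5.32, adjusted p = 0.00053). Eng (endoglin, a TGF-beta co-receptor) was at 27.4, 20.1 and 26.6 CPM in A3 and at 2.36, 2.39 and 2.31 CPM in B4 (-3.38, adjusted p = 0.0002). Pi16, a marker of universal fibroblasts, rose by 2.77, and Dpt (dermatopontin), a marker of the same cells, fell by 2.24. S100a4 was lower by -2.26 (adjusted p = 0.0064, and 0.0505 without the T69A library of A3).

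Type I collagen chains came apart. Col1a2 was at 692, 113 and 402 CPM in A3, 3478, 1403 and 2302 CPM in B4 and 1486, 664 and 1083 CPM in Rosa, a difference of 2.82 between the clones (adjusted p = 0.0043). Col1a1, which encodes the partner chain, was at 8064, 4311 and 9159 CPM in A3 and 7697, 4375 and 6373 CPM in B4, with a log2 difference of -0.19 (adjusted p = 0.31). Col1a2 thus lay below Rosa in A3 and above Rosa in B4, while the Col1a1 libraries overlapped. In PSC5, Col1a2 was at 1432 CPM in Rosa, 3.01 CPM in KO C5 and 36.9 CPM in KO D4, 1 library each. Col3a1 was lower in B4 by -1.64 (adjusted p = 0.0078).

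Adipocyte genes gave 2 higher and 5 lower of 14 tested, and 4 calls were left without the T69A library of either clone. Called genes were 50% of those tested, and 28.6% at 2-fold, against 45.2% and 10.7% of all tested genes. The split was 2 higher and 2 lower with the chromosome medians taken out. Lpl, lipoprotein lipase, rose from 24.0, 10.8 and 22.6 CPM to 99.8, 91.9 and 139 CPM (2.58, adjusted p = 0.0018) and Cebpa, a factor of fat and liver cells, by 1.46, whereas Fabp4 fell from 14.5, 21.1 and 24.1 CPM to 2.78, 4.18 and 3.18 CPM. Pparg, the central factor of fat cells, did not pass the test, at 0.23 (adjusted p = 0.53). Cartilage genes gave 3 higher and 1 lower of 12 tested, tendon genes 2 and 2 of 10, bone genes 1 and 3 of 17. Mesothelial genes gave 4 and 2 of 12. The share called was 33.3% for cartilage, 40% for tendon and 23.5% for bone, below the 45.2% of all tested genes. At 2-fold these shares were 33.3%, 10% and 0%, in that order, against 10.7%. For mesothelial genes 50% were called and 8.33% at 2-fold, and 1 call was left without the pairing by organoid line. The 4 cartilage calls and the 4 bone calls each became 2 without the T6-LOH library of either clone, and so did the bone calls without the T69A library of A3. Among neural and neural crest genes, 3 were higher and 4 lower of 11 tested. Their share called was 63.6%, and 18.2% at 2-fold, against the same 45.2% and 10.7%. Taking the chromosome medians out gave 1 higher and 2 lower, and 4 calls were left without the pairing by organoid line. Gfra1, a receptor of the GDNF family, rose by 1.79, and the synaptic vesicle gene Syt1 fell from 62 counts in A3 to 2 in B4 (ratio 31.0, counting interval 8.24 to 262).

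Markers of other cells were low. The endothelial list summed to 17.7 to 23.5 CPM in A3 and 23.0 to 63.7 CPM in B4. Of 7 tested members, 3 were higher, among them Kdr and Flt1, both VEGF receptors (2.95 and 1.85), and 1 was lower, Plvap (-1.07). These calls, all at 2-fold, were 57.1% of the tested members. Over all tested genes 45.2% were called, and 10.7% at 2-fold. The defining markers Pecam1 and Vwf reached at most 1.00 and 1.92 CPM in any B4 library and did not pass the test (adjusted p = 0.051 for Pecam1 and 0.050 for Vwf), and Cdh5 did not pass the filter. Of 22 tested epithelial genes, Krt8, Krt19 and Tff1 were higher in B4 and 0 were lower. That share, 13.6%, was below the 45.2% of all tested genes. Epcam stood at 1.27, 0.899 and 2.89 CPM in A3 and 1.24, 1.23 and 2.92 CPM in B4 (0.14, adjusted p = 0.71). Their adjusted p rose to 0.11 for Krt8 without the T6-LOH library of B4, to 0.149 for Krt19 without the T6-LOH library of A3 and to 0.141 for Tff1 without the T69A library of B4. The carry-over ratio was higher and the marker sum lower in B4 in each pair, as given above, and the part of carry-over in these calls of Krt8, Krt19 and Tff1 was not tested.

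**Figure D3:**
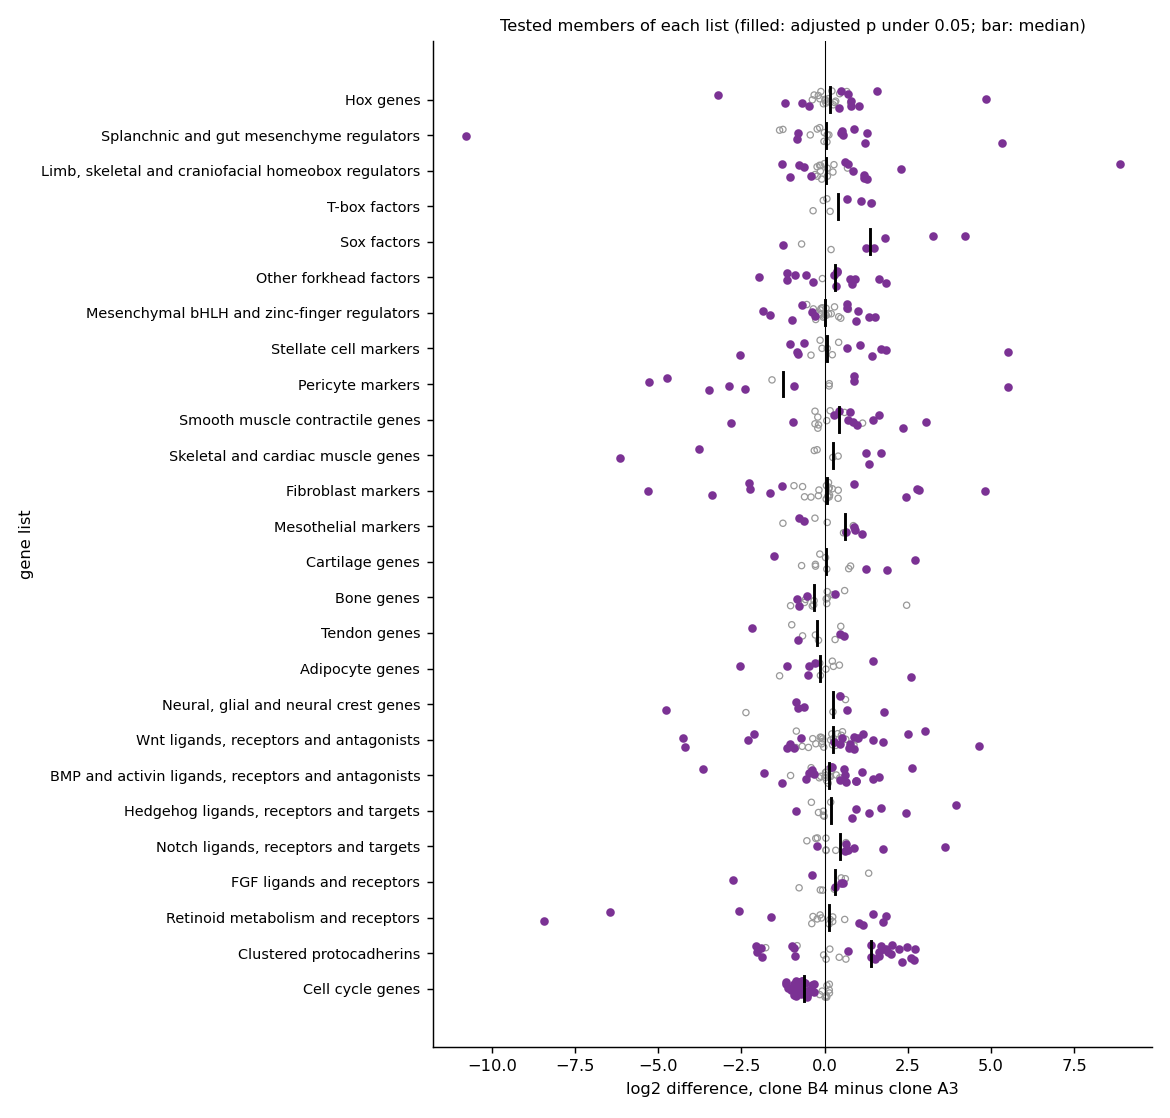
Log2 difference (B4 minus A3) of each tested member of the developmental, lineage and signalling lists with 5 or more tested genes, and of the protocadherin and cell cycle lists, one row per list, filled where the adjusted p is under 0.05, with a bar at the median. The points of Isl1, En2 and Crabp1 far from 0 are fitted values that depend on the prior count. Most rows spread to both sides of 0, while the median of the 8 tested Sox factors is 1.37 and the cell cycle median is -0.61.

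Signalling genes differed in both directions. Over the 6 lists, 141 of 213 genes were tested, 69 (48.9%) were called, 46 higher and 23 lower in B4, and 36 (25.5%) at 2-fold. The share called is again near the 45.2% of all tested genes, of which 10.7% were called at 2-fold. For the same reasons as in the lineage lists, these shares are a description.

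In the Wnt pathway, secreted ligands act through Frizzled receptors and Lrp coreceptors and are boosted by R-spondins. Of 46 tested genes, 14 were higher and 8 lower. The 22 calls became 14 without the T69A library of either clone and 7 without the pairing by organoid line. Calls made up 47.8% of those tested, and 28.3% at 2-fold, against 45.2% and 10.7% of all tested genes. Among secreted agonists, Rspo3 was at 13.6, 35.1 and 27.7 CPM in A3, 17.2, 36.7 and 31.1 CPM in Rosa and 0.750, 2.23 and 1.18 CPM in B4 (-4.21 ± 0.16, SE, adjusted p = 0.00018). Both A3 and Rosa were far above B4, and all 3 lines were highest with T12-LOH. Wnt2 was higher in B4 by 2.52 (adjusted p = 0.0022). Among secreted antagonists, Sfrp2 fell from 116, 18.6 and 61.1 CPM to 3.60, 1.11 and 5.06 CPM (-4.25, adjusted p = 0.0018) and Dkk1 and Sfrp4 were lower by -2.30 and -2.13, but Frzb rose from 1.9, 2.57 and 1.73 CPM to 17.1, 13.0 and 21.3 CPM (3.01, adjusted p = 0.001). At the receptor level, Lgr4, which binds R-spondins, rose by 1.00, Lrp5 fell by 0.91 and Fzd1 rose by 1.46 (adjusted p = 0.016, and 0.094 without the T69A library of B4). Nkd1, an intracellular antagonist that Wnt signalling induces, rose from 14 counts in A3 to 349 in B4 (4.63, adjusted p = 0.002).

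BMP and activin genes gave 12 higher and 7 lower of 35 tested, and 11 calls were left without the T69A library of B4. Without the pairing by organoid line 7 were left. Called genes were 54.3% of those tested, and 20% at 2-fold, against 45.2% and 10.7% of all tested genes. The secreted BMP antagonist Chrdl1 fell from 13.2, 5.65 and 8.26 CPM to 0.788, 0.557 and 0.741 CPM (-3.65, adjusted p = 0.00054). Grem1, another antagonist, overlapped between the clones (-0.12, adjusted p = 0.44). The receptor Acvrl1 (ALK1) rose by 2.63, and Bmp1, a procollagen protease, by 0.96. Smad6, an inhibitory Smad that BMP signalling induces, was higher by 1.13 (adjusted p = 0.011, and 0.0518 without the T6-LOH library of B4).

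Hedgehog genes gave 6 higher and 1 lower of 13 tested. This is 53.85% called and 30.8% at 2-fold, against 45.2% and 10.7% of all tested genes. The coreceptor Boc was at 1.36, 1.93 and 2.24 CPM in A3, 22.2, 24.1 and 40.9 CPM in B4 and 1.67 to 4.64 CPM in Rosa (3.94 ± 0.15, SE, adjusted p = 0.00018). Gli2, a transducer, was higher by 0.95, and A3 was the clone below Rosa for it, with 33.7, 25.5 and 30.6 CPM against 47.3 to 52.6 CPM. Ptch1, receptor and target, was lower by -0.85 (adjusted p = 0.0012). Gli1, the other usual target, had 2.31, 0.482 and 0.793 CPM in A3 and 9.83, 0.995 and 1.09 CPM in B4 (1.32, adjusted p = 0.032). Its call rested on the T6-LOH pair, with an adjusted p of 0.268 without the T6-LOH library of B4, and it was also lost with the chromosome medians taken out (0.76, adjusted p = 0.164). Scube3, which helps release Hedgehog ligands, rose by 2.45.

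Notch genes gave 6 higher and 1 lower of 16 tested. The share called, 43.75%, is near the 45.2% of all tested genes, and 12.5% were called at 2-fold against 10.7%. The ligand Dll1 was at 0.453, 1.41 and 0.607 CPM in A3 and 6.42, 16.4 and 7.41 CPM in B4 (3.62, adjusted p = 0.00034), highest with T12-LOH in both. The receptors Notch4 and Notch1 were higher by 1.76 and 0.70, and the target Hes1 overlapped between the clones (0.04, adjusted p = 0.74). Among 12 tested FGF genes, 3 were higher and 2 lower, and 3 calls were left without the T69A library of either clone. With 41.7% called and 8.33% at 2-fold, the FGF list was below the shares of all tested genes. Fgf10, the mesenchymal ligand that drives budding of the embryonic pancreas, was at 9.02, 16.0 and 13.4 CPM in A3, 14.7, 22.3 and 17.0 CPM in Rosa and 0.863, 3.26 and 1.96 CPM in B4 (-2.75, adjusted p = 0.00078). The B4 libraries were all below the others.

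Retinoid genes gave 5 higher and 4 lower of 19 tested, and all 9 changed at least 2-fold. This is 47.4% of those tested, near the 45.2% called over all tested genes, of which 10.7% were called at 2-fold. Besides Crabp1, Rarres1, a retinoic acid responsive gene, fell from 13.4, 1.54 and 9.61 CPM to 0.225, 0 and 0.0436 CPM (-6.46, adjusted p = 0.00054). Rbp4, the serum retinol carrier, fell by 2.59 and Crabp2, a second retinoic acid binding protein, by 1.63 (adjusted p = 0.0098, and 0.0577 without the T6-LOH library of A3). Aldh1a3, which makes retinoic acid, rose by 1.45, and the retinol dehydrogenases Rdh10 and Rdh5 by 1.05 and 1.15.

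Adhesion genes differed in both directions. Among 19 tested cadherins and relatives, 10 (52.6%) were called, 2 higher and 8 lower in B4, and 7 (36.8%) at 2-fold. The shares over all tested genes were 45.2% and 10.7%. Taking the chromosome medians out gave 4 higher and 7 lower. Pcdh19 was at 82.4, 68.6 and 55.6 CPM in A3, 69.2 to 102 CPM in Rosa and 10.7, 7.16 and 6.50 CPM in B4 (-3.10 ± 0.09, SE, adjusted p = 0.00012). Cdh6 fell by 4.34, Cdh13 by 3.11 and Pcdh9 by 2.69, and Cdh10 rose by 4.24. Cdh2 (N-cadherin) overlapped (0.07, adjusted p = 0.61). Of 33 tested clustered protocadherins, whose stochastic promoter choice gives single cells their own combination, 26 (78.8%) were called, 18 higher and 8 lower, and 22 (66.7%) at 2-fold. For all tested genes these shares were 45.2% and 10.7%. The list holds 58 genes, and a member high in 1 clone only passes the filter through that clone, so these counts are a description. Pcdhb16 was at 2.08, 1.28 and 1.91 CPM in A3 and 10.7, 9.11 and 14.9 CPM in B4 (2.71, adjusted p = 0.00059), and Pcdhgb6 at 35.7, 31.8 and 30.3 CPM in A3 and 9.23, 10.4 and 6.37 CPM in B4 (-1.93, adjusted p = 0.00062). Genes of one cluster share exons or near-identical sequence, so the split of reads among them is uncertain.

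Imprinted genes, read from 1 parental copy, gave 5 higher and 5 lower of 22 tested, and 6 calls were left without the T69A or the T6-LOH library of A3. The share called, 45.5%, is near the 45.2% of all tested genes. Cdkn1c, a cell cycle inhibitor read from the maternal copy, fell from 157 counts in A3 to 3 in B4 (ratio 52.4, counting interval 17.6 to 257), with 1.89 to 2.08 CPM in Rosa. Peg10 fell from 177, 186 and 133 CPM to 39.7, 29.6 and 30.8 CPM (-2.31, adjusted p = 0.00048) and Ndn (necdin) by 1.77, and Grb10 rose by 0.76. Of the Y-linked genes, Ddx3y and Eif2s3y had at most 2 counts in either clone, Uty had 4 in A3 and 6 in B4, and Kdm5d had 23 in A3 and 29 in B4.

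The 30 named genes with the largest differences, 15 in each direction, included several not in any list. Serpine2 (nexin-1, a protease inhibitor of the matrix) was at 308, 59.5 and 278 CPM in A3, 62.2 to 140 CPM in Rosa and 1.73, 0.318 and 1.00 CPM in B4 (-7.71 ± 0.14, SE, adjusted p = 2.6e-05). Ctsc, a lysosomal protease, fell from 61.5, 65.8 and 95.2 CPM to 0.413, 1.39 and 1.35 CPM (-6.16). Dapk1, a calmodulin-regulated kinase linked to cell death, was at 0.544, 0.193 and 0.280 CPM in A3, 28.9, 20.0 and 41.7 CPM in B4 and 5.57 to 9.54 CPM in Rosa (6.46, adjusted p = 0.00018). Adamts9, a matrix protease, and Htatip2 were lowest in A3. Adamts9 had 0.453, 0.931 and 0.327 CPM in A3, 5.67, 23.9 and 12.9 CPM in B4 and 28.6 to 53.6 CPM in Rosa, and Htatip2 had 0.181, 0.353 and 0.886 CPM in A3, 10.6 to 12.3 CPM in B4 and 7.59 to 9.07 CPM in Rosa. The B4 libraries were below every Rosa library for Adamts9 and above every Rosa library for Htatip2. The rest were Zfp105, Dok5, Chil1, Cntn2, Fli1, Rgs5, Hunk, Hoxb13, Thy1, Ctla2a, Itga9 and Nkd1 on the higher side and Isl1, Cadm2, Crabp1, AW551984, Csmd1, Insc, Rarres1, Unc5c, Mboat2, Itm2a, Slc9b2, Trpc6 and Esm1 on the lower side. Ctla2a has a near-identical relative and Chil1 has more distant ones, so some reads may be split among relatives.

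Genes of the states of cancer-associated fibroblasts differed in both directions. Of 26 tested genes of the inflammatory state, which is driven by cytokines from tumour cells, 4 were higher and 10 lower in B4, with a median of -0.33. The share called was 53.8%, and 34.6% at 2-fold, against 45.2% and 10.7% of all tested genes. Without the pairing by organoid line 5 of these genes were called. The lists of both states were chosen with earlier results of these data known, so their shares are a description. Il33 fell from 122, 320 and 168 CPM to 5.33, 46.0 and 15.0 CPM (-3.52, adjusted p = 0.0048), with Rosa at 167 to 526 CPM. The neutrophil chemokines Cxcl5 and Cxcl1 fell by 2.82 and 1.78, with adjusted p of 0.0533 without the T69A library of B4 and 0.0583 without the T6-LOH library of B4. Lif, C3 and Cxcl12 were higher by 1.28, 0.92 and 0.66. Members of the same state thus went both ways. Of 29 tested myofibroblastic genes, 16 (55.2%) were called, 9 higher and 7 lower, and 10 (34.5%) at 2-fold. Without the T6-LOH library of either clone 9 calls were left, and 9 also without the pairing by organoid line. Cthrc1, a secreted protein of collagen-making cells, fell from 157 counts to 3 (ratio 52.4). Tnc (tenascin-C) fell by 0.79 and Mmp11 rose by 1.34. Some genes of the 2 state lists are also in the fibroblast and smooth muscle lists.

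Feedback targets of EGFR and MAPK signalling gave 9 higher and 5 lower of 30 tested, with a median of 0.20. The share called, 46.7%, is near the 45.2% of all tested genes. Egr2, an immediate early factor, was at 98.0, 53.3 and 95.6 CPM in A3, 372, 393 and 791 CPM in B4 and 49.4 to 102 CPM in Rosa (2.62, adjusted p = 0.0036). Dusp4, a MAPK phosphatase, rose by 0.96 and Spred2 by 0.57. Errfi1 (MIG6), a feedback inhibitor of EGFR, fell from 539, 620 and 725 CPM to 211, 258 and 314 CPM (-1.27, adjusted p = 0.00048), and the ligand Ereg fell by 0.86.

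Cell cycle genes were lower in B4. Of 40 tested, 30 (75%) were lower and 0 higher, against 22.4% of all genes lower, with a median of -0.61, and 19 calls were left without the T69A library of B4. Mki67 was at 660, 878 and 777 CPM in A3, 658, 879 and 782 CPM in Rosa and 420, 449 and 424 CPM in B4 (-0.83, adjusted p = 0.0013). A3 and Rosa matched library by library, and all B4 libraries were lower. Ccna2 (cyclin A2) fell by 1.15 and Cdc20 by 1.16. With the chromosome medians taken out 31 were lower and 1 higher. Organoid carry-over of under 1% was measured in all 6 libraries, and its part in these values was not tested. In the senescence and tumour suppressor list 13 of 17 tested genes (76.5%) were called, 5 higher and 8 lower, against 45.2% of all tested genes. Of these calls 9 were left without the T69A library of either clone. The count was 7 without the pairing by organoid line and 10 with the chromosome medians taken out. Cdkn2a, which encodes p16 and p19ARF, was at 465, 263 and 337 CPM in A3 and 214, 128 and 130 CPM in B4 (-1.17, adjusted p = 0.00068), and its neighbour Cdkn2b fell by 0.80. Both stayed called with the chromosome medians taken out, at an adjusted p of 0.00219 for Cdkn2a and 0.0406 for Cdkn2b in the same test. Cdkn1a (p21) rose by 0.65.

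Many of the small differences followed the chromosome a gene lies on. Genes of chromosome 10 were mostly higher and genes of chromosome 8 mostly lower in B4. The median log2 difference of 666 tested genes on chromosome 10 was 0.57 (1.48-fold), 86.3% of them lay above 0, and 461 were called higher against 29 lower. The median of 719 genes on chromosome 8 was -0.54 (0.690-fold), 82.2% lay below 0, and 447 were called lower against 35 higher. These medians repeated with each organoid line. Taken within lines they were 0.545, 0.542 and 0.541 for chromosome 10 and -0.498, -0.511 and -0.500 for chromosome 8. The median of all tested genes was 0.01. Other chromosomes moved less, with -0.33 for chromosome 4, -0.27 for chromosome 16, -0.25 for chromosome 19, 0.25 for chromosome 12 and -0.24 for chromosome 3.

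**Figure D4:**
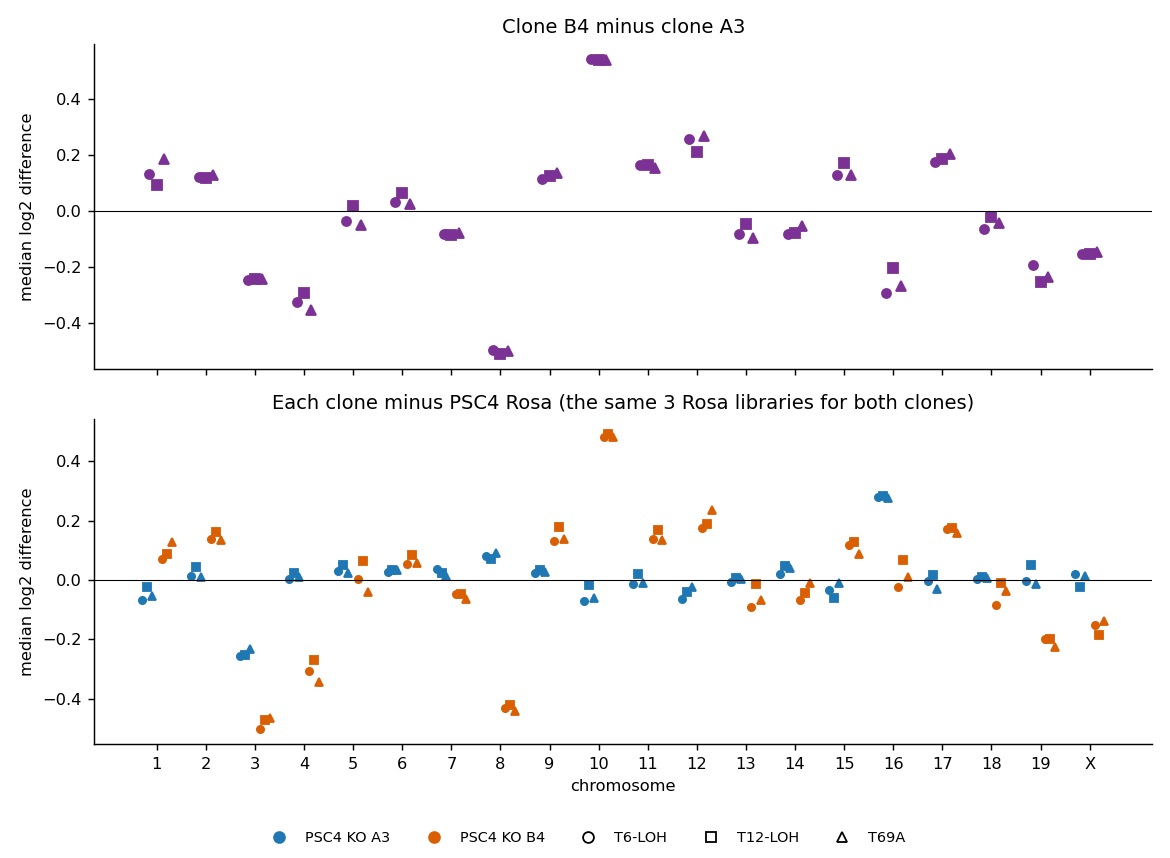
Median log2 difference of the tested genes of each chromosome, with 1 point per organoid line, for B4 minus A3 (top) and for each clone minus PSC4 Rosa (bottom, the 3 Rosa libraries shared). The points of the 3 organoid lines lie close together. Chromosome 10 is near 0.54 and chromosome 8 near -0.50 in the top panel, and chromosome 16 is near 0.28 for A3 alone in the bottom panel.

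The shift ran along the whole of chromosomes 10 and 8. With genes in chromosomal order cut into 10 equal bins, the bin medians were 0.434 to 0.658 on chromosome 10 and -0.688 to -0.216 on chromosome 8, all of 1 sign. Chromosome 4 was below 0 in all 10 bins as well, at -0.439 to -0.214. Against the shared Rosa libraries, the mean of the 3 lines for chromosome 10 was -0.05 in A3 and 0.49 in B4, for chromosome 8 it was 0.08 in A3 and -0.43 in B4, and for chromosome 4 it was 0.01 in A3 and -0.31 in B4. Taken over whole chromosomes, B4 was thus the clone further from Rosa on these 3. Along chromosome 8, the A3 bins ranged from -0.218 (bin 7) to 0.265 (bin 4) against Rosa. Chromosome 16 differed, at 0.28 in A3 and 0.02 in B4. Chromosome 3 was below Rosa in both clones, at -0.25 in A3 and -0.48 in B4. On chromosome 16 the B4 bins were 0.058 to 0.162 against Rosa over the first 6 bins and -0.168 to -0.098 over the last 4, while those of A3 were 0.244 to 0.320 throughout. DNA copy number was not measured.

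**Figure D5:**
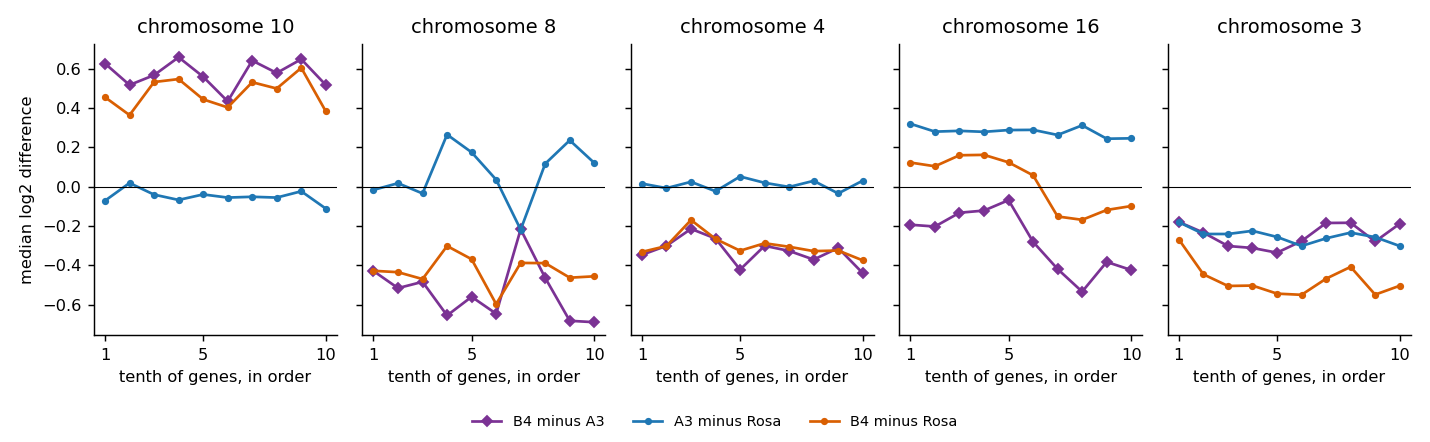
Median log2 difference in 10 bins of genes in chromosomal order, for chromosomes 10, 8, 4, 16 and 3, with B4 minus A3 (diamonds) and each clone minus PSC4 Rosa (circles). Chromosome 10 is raised and chromosome 4 lowered over all 10 bins in B4, and the B4 line of chromosome 16 crosses 0 after bin 6.

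The position of a gene bears on its call. Chromosomes 10, 8 and 4 hold 16.4% of the tested genes, 24.6% of the 4695 genes called under 2-fold and 21.4% of those called at 2-fold. When the median of each chromosome was taken out as an offset, an alternative chosen after seeing the data, 4665 genes were called, 2371 of them higher in B4. Of 193 named or listed genes called at 2-fold, 14 no longer passed, among them Gli1, Foxl1, Bmpr1b, Sox7 and Sox9. Bmpr1b also lost its call on omitting single libraries, up to an adjusted p of 0.175 without the T12-LOH library of A3. Foxf1 and Nkd1, both on chromosome 8, were higher in B4 against the direction of that chromosome, and Ndufa4l2 and Rspo3, on chromosome 10, were lower against the direction of theirs. With the medians out, these values were 1.81, 5.15, -5.83 and -4.77. Small calls on the shifted chromosomes were lost, such as Mdm2 (0.81 before and 0.25 after, adjusted p = 0.117) and Dusp6 (0.92 before and 0.36 after, adjusted p = 0.281) on chromosome 10 and Cdh11 (-0.83 before and -0.29 after, adjusted p = 0.309) on chromosome 8. Dusp6 also lost its call without the T6-LOH library of B4 (adjusted p = 0.109) and Cdh11 likewise (0.112).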

How the data were processed

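RNA of sorted stellate cells was sequenced, and transcript abundances were deposited by the authors as estimated counts per transcript, made with Salmon 1.9.0 on the mouse build GRCm39, per the submitters' processing notes. Strandedness was not stated by the labels. Of 117135 transcripts, 115973 (99.0%) were matched to genes of a GENCODE annotation used for names, chromosome membership and gene order only, and their estimated counts were summed per gene and rounded. Unmatched transcripts held 0.374% to 0.43% of the counts of the 6 libraries.

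The clones were compared with edgeR 4.0.16 (quasi-likelihood test, TMM scaling, filterByExpr, robust dispersion; R 4.3.3), B4 minus A3, with the organoid line as a block, 2 residual degrees of freedom and Benjamini-Hochberg adjusted p under 0.05 over all genes tested. Organoid line is a shared label, and deviations from the clone means correlated between the clones within it (Pearson 0.459 for T6-LOH, 0.55 for T12-LOH and 0.343 for T69A). CPM use TMM library sizes of the 9 PSC4 stellate cell libraries. Values against Rosa come from a fit of those 9 libraries. Intervals are exact and use a 95% level. Named genes were Egfr, the 15 protein-coding genes per direction with the largest differences (mean log2 CPM of at least 1, same direction in 3 lines, predicted genes left out), called members of 38 gene lists and up to 4 members per list with the smallest p. The members and lists were chosen with earlier results of these data known. The fit was tested on simulated data with 200 changed genes, where it recovered more of the larger changes and the share of false calls was above the nominal level, so that counts of calls are approximate. Alternatives were other scalings and filters, DESeq2 1.42.0, no block, a test against 2-fold, more libraries, and omission of each library and organoid line. Tables were handled with Python 3.11.15 and pandas 2.3.3. Some results are not reported here.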

Additional observations from a re-analysis of the deposited data

Results flagged for a closer look

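In 12 named genes the clones lay on opposite sides of Rosa, each at least 2-fold and past the threshold (edgeR quasi-likelihood test), and the difference between the clones was itself tested as B4 minus A3. Both comparisons with Rosa use the same 3 Rosa libraries. Over all tested genes 30 showed this pattern, 20 of them higher in B4.

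Dapk1 differed by 6.46 on the log2 scale (A3 minus Rosa -4.49, B4 minus Rosa 1.97) and Hoxb13 by 4.85 (-2.06 and 2.85). Zfp105 differed by 8.22 (-6.49 and 1.74) and Dok5 by 8.12 (-5.29 and 2.88), both from 1 count in A3, so that these fitted values depend on the prior count. Sox13, a Sox factor, differed by 3.27 (-1.32 and 1.96), Cdh10, a cadherin, by 4.24 (-2.50 and 1.78) and Col1a2 by 2.82 (-1.65 and 1.13).

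In the other direction, Fabp4 differed by -2.54 (1.27 and -1.26) and Chrdl1 by -3.65 (1.13 and -2.54). Csmd1 differed by -8.21 (1.62 and -6.57) and Insc by -7.05 (1.12 and -5.95), each with 2 counts in B4, and Mboat2 by -6.24 (2.41 and -3.81), with 4 counts in B4.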

How the results depend on the processing

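The clones were paired by organoid line, since the replicate numbers in the labels are not shared between them. Without the organoid-line block 3719 genes passed (1848 higher, 1871 lower), with 44 developmental, 33 lineage and 31 signalling list members, and Egfr had 1.03 (adjusted p = 0.0513). A test against a 2-fold change called 447 genes (231 higher, 216 lower), with 11, 19 and 15 members of those lists. The rule of adjusted p and at least 2-fold called 1448 (798 and 650). Without organoid line T69A 3810 passed (1800 and 2010). Omitting single libraries gave 3747 to 4809 genes, 1829 to 2346 higher and 1912 to 2515 lower, with 51 to 66 developmental, 56 to 80 lineage and 48 to 72 signalling members and 0.99 to 1.04 for Egfr. At 5 CPM, 4 genes were present in 1 clone and near 0 in the other.

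The median of chromosome 8 was -0.54 with RLE, -0.50 with upper-quartile factors, -0.48 without a filter, -0.55 without the block, -0.545 with DESeq2 and -0.53 with 9 libraries. It was -0.56 to -0.51 on omitting single libraries, and -0.56, -0.52 and -0.522 without T6-LOH, T12-LOH and T69A. That of chromosome 10 was 0.557 with RLE, 0.60 with upper-quartile factors, 0.515 without a filter, 0.57 at a mean of at least 1 CPM, 0.56 without the block, 0.557 with DESeq2, 0.559 with 9 libraries and 0.53 with 12. It was 0.555 to 0.571 on omitting single libraries, and 0.57, 0.556 and 0.551 without the 3 organoid lines in turn. Neither median changed sign in these settings.

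With chromosome medians taken out, chosen after seeing the data, Enpp1 (-0.26), Foxc2 (0.18), Foxo3 (-0.29), Lrig3 (-0.018), Nbl1 (0.021) and Notch2 (0.015) reversed, by construction of that offset. Except for Lrig3, their calls were also lost on omitting single libraries. The largest adjusted p was 0.0712 for Enpp1 and 0.094 for Foxc2, without the T6-LOH library of A3 and of B4. It was 0.157 for Foxo3 without the T12-LOH library of A3. Without the T69A library of B4 it was 0.145 for Nbl1 and 0.121 for Notch2. Of 358 called named or listed genes, 166 kept direction and threshold in every alternative that gave each gene a value (the test against 2-fold was counted over genes only), and 143 fell short of the threshold without the block. Omission of a library leaves fewer samples and 1 residual degree of freedom. Genes with few counts in 1 clone are limited by depth.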
